A study of Drosophila melanogaster with 2 samples.

Results

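The replication-independent histone genes of Drosophila melanogaster are a small set of genes that lie outside the tandem histone repeat of chromosome arm 2L. They are His2Av, His3.3A, His3.3B and His4r. These 4 genes, of 13945 protein-coding genes on the chromosome arms, were described through every peak summit within 2 kb of any of their transcription start sites (TSSs). The genes were chosen by these peak positions: each has a summit in the authors' list of peaks that passed an irreproducible discovery rate (IDR) threshold. Their presence in that IDR list is therefore a description, and no test was made on it. All 4 had such a summit, where 28.2% of protein-coding genes did with the same window, and nothing is read from that difference.

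The data are chromatin immunoprecipitation with sequencing (ChIP-seq) from whole embryos of mixed sex, collected from 0 to 24 h. The fly line carries a stable transgene in which GFP is joined to the C-terminal end of CG7987. Both libraries carry that fusion and form 1 group of 2 biological replicates, so there is no untagged or untreated group to compare with. The labels conflict: the assay and antibody fields describe ChIP for CG7987, and a free-text field describes an input control. The libraries were treated as ChIP, which no value here tests. The sources used here do not name the promoter that drives the fusion, and a whole embryo averages over all its cells and stages. Per library, the deposited lists hold 30000 candidate peaks, as does the list for the pooled libraries, and the IDR list holds 4410. Read counts were not used, so sequencing depth is unknown. The signal of a peak is the authors' own value for its strength, in a unit that the sources used here do not state. Its median differed between lists, with 59.2 in the pooled list, 23.9 in replicate 1 and 41.5 in replicate 2. Signals are therefore also given as a multiple of the median of their own list. The weakest IDR peak and the strongest pooled candidate left out of the IDR list both had a signal of 139, at ranks 4410 and 4411.

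Histones package DNA into nucleosomes. The bulk of them is made during S phase from the replication-dependent genes of the 2L repeat, whose transcripts lack a poly(A) tail and end in a stem-loop. Replication-independent genes are single genes with introns and polyadenylated transcripts, and they supply histones outside S phase. H2Av is the only H2A variant of the fly and does the work that H2A.Z and H2A.X share in mammals. H3.3 is placed into chromatin at active genes and wherever nucleosomes are lost outside replication. His4r encodes histone H4.

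Shown first are sequences around the IDR summits of His2Av, His3.3B and His4r, and those between the starts of neighbouring genes. The sequences come from the RefSeq genome sequence of dm6, read 5′ to 3′, and untranslated exons were left out. The His3.3A summit lies in its 5′ UTR, so the sequence under it is not shown. Capitals mark CCAAT, the TATA word TATAAA or the BEAF-32 core CGATA, the word read by the insulator protein BEAF-32, on either strand (TATCG and ATTGG are CGATA and CCAAT of the opposite strand). The first is the stretch around the His2Av summit, in an intron of the neighbouring gene ball (chr3R:26866656-26866757, plus strand), and the second the stretch around the His3.3B summit, in a His3.3B intron (chrX:9155143-9155293, minus strand). The other three lie between the start of a member and the start of the gene that runs away from it on the opposite strand: ball and His2Av (chr3R:26866808-26866928), CG14036 and His3.3A (chr2L:5055017-5055057), and put and His4r (chr3R:14625704-14625754, which holds the His4r summit), all on the plus strand.
His2Av summit: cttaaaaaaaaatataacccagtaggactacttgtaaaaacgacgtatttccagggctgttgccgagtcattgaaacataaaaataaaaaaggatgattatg
His3.3B summit: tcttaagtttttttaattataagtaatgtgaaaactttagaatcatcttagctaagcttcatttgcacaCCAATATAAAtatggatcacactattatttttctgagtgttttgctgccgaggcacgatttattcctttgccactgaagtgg
ball to His2Av: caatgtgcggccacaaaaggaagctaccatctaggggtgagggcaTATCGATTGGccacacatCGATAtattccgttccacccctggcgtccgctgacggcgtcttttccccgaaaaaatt
CG14036 to His3.3A: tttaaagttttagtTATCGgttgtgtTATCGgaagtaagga
put to His4r: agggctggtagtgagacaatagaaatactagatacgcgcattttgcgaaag

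These stretches have unlike base composition. G and C make up 32.4% of the His2Av summit stretch and 32.5% of that of His3.3B, against 52.9% of the 121 bp between ball and His2Av. The share is 31.7% between CG14036 and His3.3A, and 43.1% between put and His4r, the stretch that holds the His4r summit. Summit stretches and stretches between starts are thus not set apart by this share. In the His3.3B stretch CCAAT and TATAAA share a base and are centred within 4 bp of the summit.

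His2Av (FBgn0001197, 3R 26866929 to 26869220, plus strand) encodes H2Av, a protein of 141 residues in this annotation, and has 1 TSS. Its IDR peak ran from 26866615 to 26866722. The summit at 26866682 lay 247 bp upstream of the His2Av TSS, and at the same time 57 bp upstream of a TSS of ball, in a ball intron. ball encodes a kinase that phosphorylates nucleosomal histone H2A. The signal was 188 in the pooled list, at rank 2518. In replicate 1 the matching summit was at 26866631, with a signal of 40.2 and rank 6403, and in replicate 2 at 26866703, with 146 and rank 2042. As multiples of the list medians these were 1.68 and 3.51, so the peak stood higher in replicate 2. How much each library gave to the pooled signal was not tested. In replicate 2 the −log10 q of this peak was 3.66, the highest value in that list, which 2308 candidates share. The IDR peak was 108 bp wide, while the commonest width in the list was 376 bp and 4.06% of IDR peaks were no wider. An adjoining pooled candidate with its summit 39 bp upstream of the His2Av TSS, between both genes, had a signal of 76.6 at rank 10704 and was not in the IDR list. Replicate 2 had a candidate 12 bp upstream of the TSS with a signal of 30.1 at rank 22182.

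Inside the His2Av gene there were weaker candidates. A pooled summit lay in an intron 670 bp downstream of the TSS, with a signal of 55.8, below the median of the pooled list. In replicate 1 the intron summit at 652 bp had a signal of 40.6 at rank 6307, as high as the promoter summit of that replicate, and a further summit at 220 bp had 34.9. In replicate 2 the nearest intron summit was at 879 bp, with 28.0. Replicate 1 also had a candidate of 22.5 in the coding sequence of ball, 1398 bp upstream. Promoter and intron thus stood level in replicate 1, while in replicate 2 the promoter was well above the intron.

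His3.3A (FBgn0014857, 2L 5055058 to 5056149, plus strand) is the first of the pair of genes for H3.3, with TSSs at 5055058 and 5055134. Its IDR peak spanned 5054934 to 5055309 with the summit at 5055122, in the 5′ UTR between both TSSs. That is 12 bp upstream of the second TSS, 64 bp downstream of the first and 106 bp from the TSS of CG14036, which starts on the opposite strand. The pooled signal was 165, at rank 3248. Replicate 1 had its summit at 5055123, with a signal of 60.3 and rank 3045, and replicate 2 at 5055086, with 111 and rank 3441. The multiples of 2.52 and 2.68 were the closest pair among the 4 genes. In replicate 1 the −log10 q of 4.06 was the highest value of that list, which 5682 candidates share, the matched peak of His4r among them. Both replicates placed His3.3A at nearly the same height, unlike the other 3 genes.

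The gene body of His3.3A had a pooled candidate of 61.2 in the coding sequence, 547 bp downstream of the second TSS, and a replicate 1 candidate of 33.8 at 461 bp. Upstream, replicate 1 had a candidate of 24.0 at 1764 bp and replicate 2 one of 33.1 at 1563 bp, both in the coding sequence of senju. Just outside the 2 kb window, 2292 bp upstream, lay a much stronger IDR peak with a signal of 504 at rank 312. Its summit is in the 5′ UTR of eIF3h, which encodes a subunit of a translation initiation factor.

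His3.3B (FBgn0004828, X 9152523 to 9156669, minus strand) encodes the same H3.3 protein from a longer gene with 3 TSSs. The upstream TSS is at 9156669, the middle one at 9155613 and the downstream one at 9155012, and pooled candidates lay at all 3. The IDR peak spanned 9155030 to 9155405 with the summit at 9155218, 206 bp upstream of the downstream TSS and in an intron of the longer transcripts. Its pooled signal was 151, at rank 3795, the weakest IDR signal of the 4 genes. The pooled candidate 252 bp upstream of the middle TSS had 104 at rank 7039, and the one 27 bp inside the upstream TSS had 124 at rank 5330. Both missed the IDR list.

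The replicates ordered these 3 starts differently. In replicate 1 the middle start was highest, with 57.5 (rank 3353), then the upstream start with 44.7 (rank 5346), and the downstream start that carries the IDR peak was lowest, with 34.1 (rank 8456). In replicate 2 the upstream start had 105 (rank 3801) and the downstream start 104 (rank 3841), both above the middle start with 47.4 (rank 12572). In multiples of the list median the downstream start stood at 1.42 and 2.51, the middle start at 2.40 and 1.14, and the upstream start at 1.87 and 2.52. The order of the 3 His3.3B starts by strength is therefore not the same in both libraries, and the IDR summit does not mark the strongest start in replicate 1. The weaker pooled candidates within 2 kb were 41.2 in an intron, 705 bp downstream, and 37.4 at the start of Ost48, 1788 bp upstream, where replicate 2 had 36.8. Ost48 encodes a subunit of the enzyme that attaches sugars to asparagine. It runs on the same strand as His3.3B, and 259 bp lie between the genes.

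His4r (FBgn0013981, 3R 14625755 to 14626614, plus strand) encodes H4 and has TSSs at 14625755 and 14625788. Its IDR peak spanned 14625535 to 14625910 with the summit at 14625723, in the 51 bp between His4r and put. That is 32 bp upstream of the first His4r TSS and 20 bp upstream of the TSS of put, which encodes a type II receptor for activin and BMP ligands. The pooled signal was 169, at rank 3088. Replicate 1 had its summit at 14625743, with a signal of 45.3 and rank 5210, and replicate 2 at 14625726, with 106 and rank 3697. The multiples were 1.89 and 2.57. The summits of both replicates were 17 bp apart, the smallest distance among the 4 genes, where the others differed by 37 bp at His3.3A, 48 bp at His3.3B and 72 bp at His2Av. Further candidates lay in an intron of put, 31.9 in replicate 1 at 1143 bp upstream and 52.4 in replicate 2 at 1320 bp. The others were 21.3 at 375 bp upstream and 21.2 at 1368 bp downstream in replicate 1, 39.8 at 153 bp downstream in replicate 2, and 41.0 at 1412 bp downstream in the pooled list.

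Over the 4 genes, the IDR list had 4 summits within 2 kb of a TSS, the pooled list 12, replicate 1 had 14 and replicate 2 had 12. At least 1 summit of each list was present at every gene. In the pooled list 67.5% of protein-coding genes have a summit in that window, and 68.3% and 68.4% in replicates 1 and 2, so the presence of a candidate alone sets no gene apart. Narrowing the window left all 4 genes with an IDR summit, where 23.5% of protein-coding genes have one within 1 kb and 20.5% within 500 bp.

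By mean and SD of both replicates (n = 2), the multiple of the list median was 2.60 ± 1.30 at His2Av, 2.60 ± 0.115 at His3.3A, 2.23 ± 0.478 at His4r and 1.97 ± 0.767 at His3.3B. The differences between the means of neighbouring genes in this order were smaller than the larger SD of each pair. By matched peaks, His3.3A stood above His4r and His4r above His3.3B in both replicates, though in replicate 2 only by 2.68, 2.57 and 2.51. His2Av changed place between the replicates, and the pooled signals put His4r (169) above His3.3A (165). No full order of strength among the 4 genes can be given from 2 replicates with this spread. The replicate peak was the same by all 3 ways of matching it (the overlapping peak with the nearest summit, the nearest summit within 100 bp and the strongest overlapping peak). In replicate 2 all 4 matched peaks were among the 4410 strongest of that list, and in replicate 1 only that of His3.3A was. Counting any of the 4410 strongest peaks within 2 kb, replicate 2 had one at all 4 genes (28.7% of protein-coding genes) and replicate 1 at His3.3A and, by its middle start, at His3.3B (27.5%). Across the 4342 IDR peaks matched in both replicates, 60.8% were among the strongest of both, 24.6% of replicate 2 only, 11.8% of replicate 1 only and 2.81% of neither. The rank was better in replicate 2 for 3 of the 4 genes and for 51.9% of all matched IDR peaks.

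**Figure D1:**
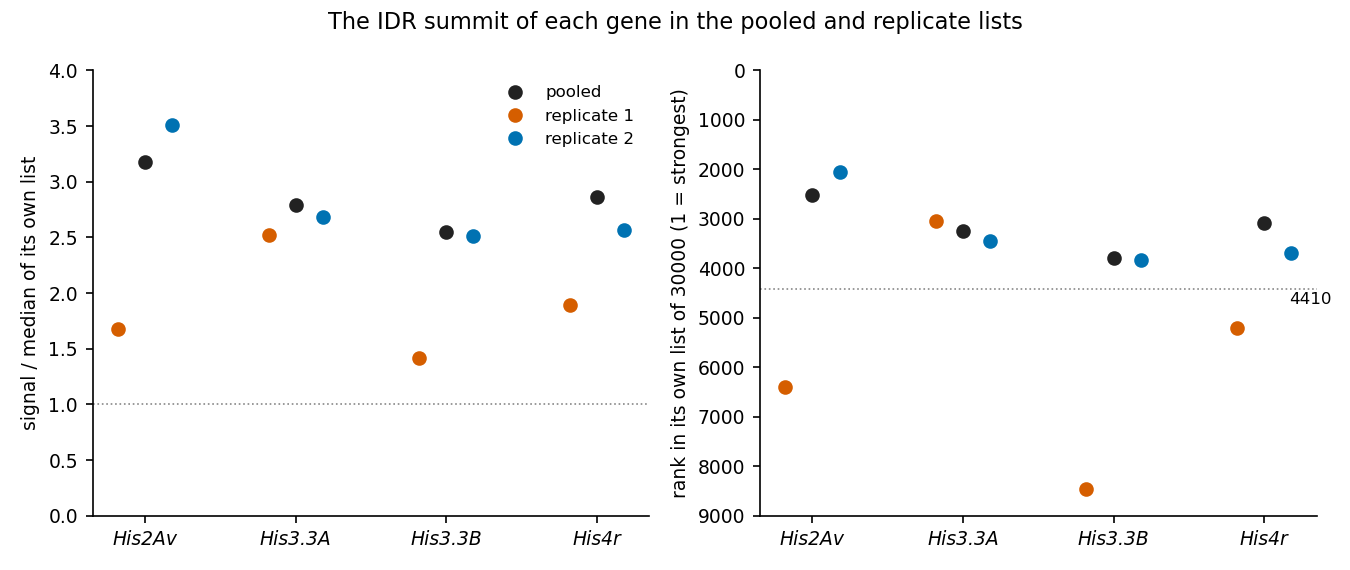
Signal as a multiple of the list median (left y axis, dotted line at 1) and rank within the list, 1 being strongest (right y axis, dotted line at 4410), for the IDR summit of each gene in the pooled list (black), replicate 1 (orange) and replicate 2 (blue). All 4 blue points are above the line at 4410, and of the orange points only that of His3.3A is.

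Within the IDR list the 4 genes lay on the weak side. Of all IDR peaks, 42.9% were weaker than that of His2Av, 30.0% than that of His4r, 26.3% than that of His3.3A and 13.9% than that of His3.3B. Against the 2431 IDR summits within 500 bp of a protein-coding TSS, whose median signal was 202 with quartiles of 164 and 274, the shares were 42.5%, 29.8%, 26.2% and 13.5% in the same order. All 4 signals, from 151 to 188, were below that median. The −log10 q gave no finer order, since all 4410 IDR peaks share a value of 4.04.

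**Figure D2:**
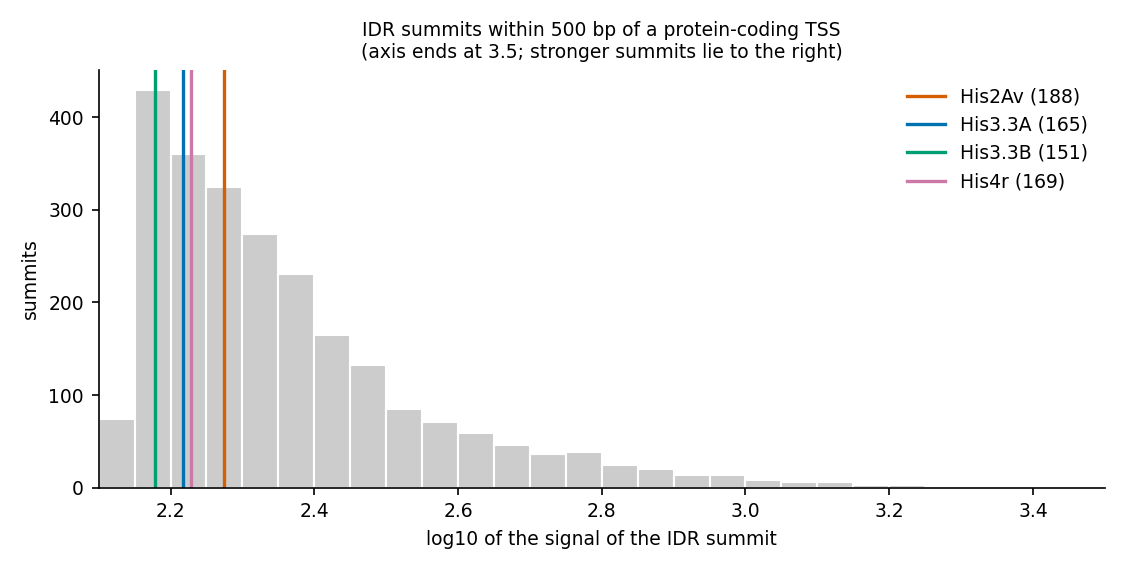
Number of IDR summits within 500 bp of a protein-coding TSS (y axis) by log10 of signal (x axis), with the 4 genes as vertical lines. The lines, at signals of 151, 165, 169 and 188, fall left of the median of 202.

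A shared start was common to 3 of the 4 genes. His2Av, His3.3A and His4r each have a protein-coding gene that starts on the opposite strand within 500 bp upstream, as do 25.0% of all protein-coding genes and 42.0% of the 2857 with an IDR summit within 500 bp. The genes are separated by 121, 41 and 51 bp, and only the His4r summit lies between the genes. The His2Av summit is in a ball intron and the His3.3A summit in the His3.3A 5′ UTR. With starts this close, a summit cannot be assigned to 1 of the pair. At the same 3 genes the IDR summit lay within 500 bp of a TSS of the partner, which holds for 48.1% of the 2857. The summit was nearer to the partner at His2Av (57 against 247 bp) and at His4r (20 against 32 bp). The His3.3B summit alone was within 500 bp of no other gene's TSS.

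Of 8 words searched on both strands, none was found within 50 bp of the IDR summit at more than 1 of the 4 genes. Within 100 bp, CGATA was at His2Av, His3.3A and His4r, and CCAAT at His2Av and His3.3B. The shares of IDR windows given here are for 50 bp, so nothing is read from the counts within 100 bp. Within 50 bp of the summit, the core promoter motif 1, GGTCACACT, was found at His3.3A, centred 14 bp from the summit and lying across the second TSS. This word is in 2.11% of all IDR windows and in 6.05% of the protein-coding promoters, taken as 250 bp before to 50 bp after a TSS. His3.3A also had the E-box CAGCTG (7.19% of IDR windows), and His3.3B had CCAAT (16.6%) and TATAAA (11.2%), both shown in capitals in its summit sequence. His4r had CGATA at 3 places, centred 49, 36 and 29 bp from its summit towards put, in the 5′ UTR of put, where 20.2% of IDR windows have it. The His2Av window held none of the 8 words. None of the 4 windows held TATCGATA, the site of the transcription factor DREF, which contains CGATA (2.79%), the E-box CACGTG (3.22%) or GAGAG, read by the GAGA factor (16%).

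In the whole promoter, CGATA was present at all 4 genes, as it is in 47.5% of protein-coding promoters. It stands at a pair of places each in the stretches between ball and His2Av and between CG14036 and His3.3A shown above. TATCGATA was in no promoter of the 4, against 9.37% of promoters, and neither were CACGTG (4.24%) and GAGAG (29.8%). CAGCTG was in the promoters of His3.3A and His3.3B (17.7% of promoters), CCAAT in those of His2Av and His3.3B (46.8%), and TATAAA only in that of His3.3B (45.9%). These matches describe letters in the windows and do not show that a factor is there.

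The H3.3 genes and His4r differ from the repeat copies at more positions in coding sequence than in protein. His3.3A and His3.3B encode identical proteins of 136 residues, yet 57 of 408 coding bases differ (86.0% identity). Against the commonest His3 copy of the repeat both carry the same 4 residue changes, A32S, S88A, V90I and M91G, with the His3 residue first and positions counted from the initiator methionine. Their coding sequences are 80.4% (His3.3A) and 78.4% (His3.3B) identical to His3. His4r and the commonest His4 copy encode the same 103 residues and differ at 50 of 309 coding bases (83.8% identity). H2Av is 57.4% identical to His2A of the repeat by a global alignment of the proteins. No stretch of 32 coding bases is shared between any of the 4 genes and its repeat counterpart, and His3.3A shares 10 of 377 such words with His3.3B. Every 32-base word of the 4 IDR peaks occurs once in the genome, as do 99.0% to 100% of those within 500 bp of their TSSs.

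The histone repeat on 2L is the contrast to these single genes. It holds 111 annotated genes in 125 kb, from 21416953 to 21541681: 23 copies of His1, 20 of His2A, 23 of His2B, 23 of His3 and 22 of His4, all without introns. No summit of any of the 4 lists lay inside it, nor within 5 kb of it, although 2L holds 23.5 pooled summits per 100 kb. Only 0.978% of its 32-base words (1218 of 124567) occur once in the genome, against 87.5% over the chromosome arms. By 1 kb steps the share was 0 in 103 of 124 steps inside the repeat, and at most 19.8%, against a median of 78.2% in the 114 steps beside it. Of the 30000 pooled candidates, 11 (0.0367%) lie on peaks with under 50% of such words, while 2.30% of protein-coding promoters are that repetitive. The sources used here do not say how reads with several matches were placed. The lists can therefore not tell a repeat without signal from one to which reads were not assigned.

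The stretch without pooled summits was wider than the repeat. It ran from 21329553 to 21618889, 289 kb in all, and is the sixth longest of 29994 distances between neighbouring pooled summits, whose median is 1237 bp. Its flanks are bounded by pooled summits and so hold none by definition. The flank on the left, 87.4 kb with 6 protein-coding genes, has 75.7% of words that occur once, and the right flank, 77.2 kb with 2 protein-coding genes, has 55%. In replicate 1 the stretch was 273 kb. In replicate 2 it was 202 kb, since that list has a candidate of 114 (rank 3257) 45913 bp to the left and one of 74.8 (rank 6646) 31751 bp to the right, at the start of Lamp1.

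**Figure D3:**
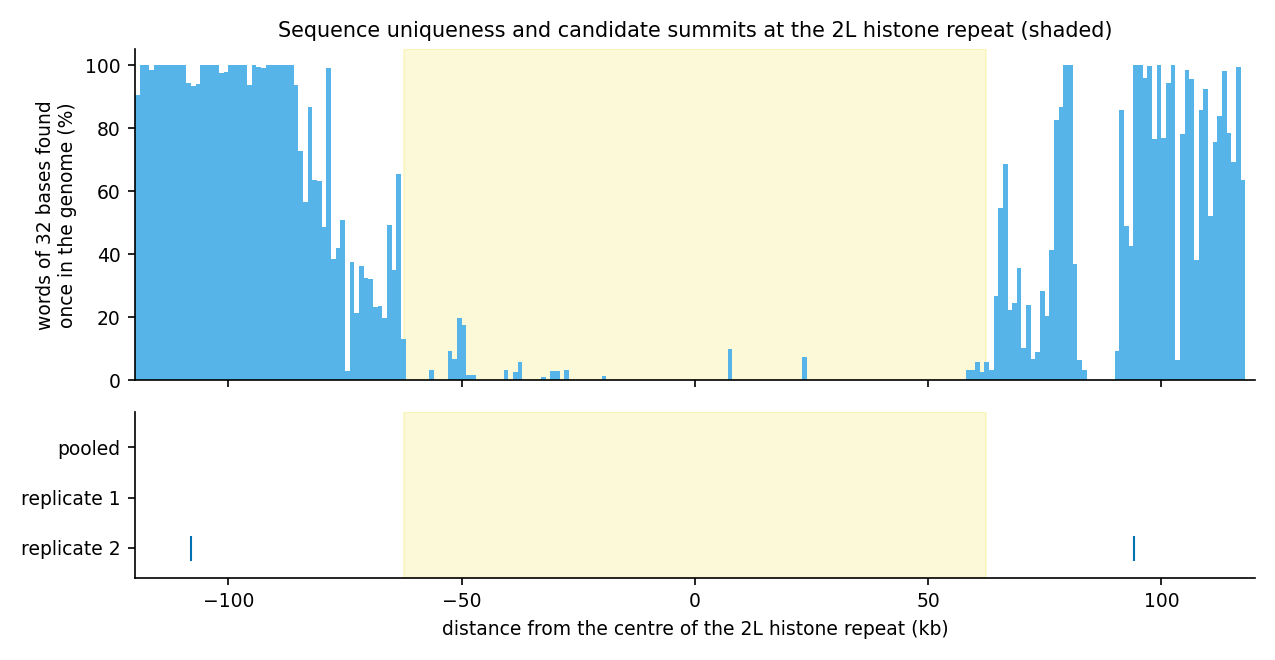
Share of 32-base words that occur once in the genome, in 1 kb steps (upper y axis, %), and candidate summits of the pooled list and both replicates (lower panel, ticks) by distance from the centre of the 2L histone repeat in kb (x axis, repeat shaded). No tick lies in the shaded part, where the share reaches at most 19.8%.

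The other annotated histone genes outside the repeat had no IDR summit within 2 kb. They are cid, the histone H3 of the centromere, and BigH1, the linker histone of the early embryo. At cid the strongest pooled candidate had a signal of 53.1 at rank 17275, 376 bp upstream, in the coding sequence of cbc. In replicate 1 a candidate of 40.3 lay 275 bp inside cid, and in replicate 2 one of 53.9 was 339 bp upstream. At BigH1 the pooled candidate had 36.3 at rank 27426, 189 bp inside the gene. Replicate 2 had 35.4 at 415 bp upstream, in the coding sequence of Rad17, and 27.8 at 184 bp inside BigH1. Replicate 1 had 18.7 at 770 bp upstream and 19.6 at 1185 bp downstream of the TSS. Both pooled signals were under the list median of 59.2, and the 4 members ranged from 151 to 188. The members were chosen for an IDR summit, so nothing is read from that difference. In replicate 1 the cid candidate of 40.3 (rank 6369) was level with the matched peak of His2Av (40.2, rank 6403). It was above that of His3.3B (34.1, rank 8456) and below those of His3.3A (60.3) and His4r (45.3). In replicate 2 the cid candidate was below all 4 matched peaks.

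Genes whose products place or exchange these histones were set beside them, with 20.5% of protein-coding genes as the background of an IDR summit within 500 bp. Of 13 genes for H3-H4 chaperones and assembly factors, 4 (30.8%) had one. They were Chd1 (signal 210, 322 bp upstream), a remodelling enzyme that helps to place H3.3, yem (181, 472 bp), a partner of the H3.3 chaperone HIRA, dre4 (180, 111 bp), a subunit of the chaperone FACT, and Daxx (151, 188 bp), an H3.3 chaperone. Of these 4 summits 3, all but that of dre4, lay within 500 bp of the TSS of another protein-coding gene. Hira itself had a pooled candidate of 104 at 39 bp upstream, short of the IDR list (named after its value was seen).

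Of 20 genes for complexes that exchange H2Av or act with them, 9 (45.0%) had an IDR summit within 500 bp. The strongest were Ino80 (403, 63 bp upstream), the ATPase of a remodelling complex, Gas41 (284, 22 bp), a YEATS domain subunit, pont (235, 121 bp), an AAA+ ATPase, and Brd8 (218, 32 bp), a bromodomain subunit. The other 5 ranged from 150 to 179. One of them, named after its value was seen, was dom (176, 20 bp), the ATPase that puts H2Av into nucleosomes. Of these 9 summits 8 lay within 500 bp of the TSS of another protein-coding gene on either strand, which holds for 48.1% of the 2857 genes with such a summit, and no test was made of that difference. Lists of this kind were described without a test, and with 20 genes each gene moves the share visibly.

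Of 11 genes for the histone locus body and for the processing of replication-dependent histone mRNA, 1 (9.09%) had an IDR summit within 500 bp. The count differed by library, with 3 among the 4410 strongest peaks of replicate 2 and 0 among those of replicate 1. The share of protein-coding genes in these lists is given here only for 2 kb (28.7% and 27.5%). Nothing is therefore read from these counts. The gene in the IDR list was CstF64 (212, 145 bp upstream), a cleavage factor. Its summit also lay within 500 bp of the TSS of another protein-coding gene. Its replicates differed widely, with rank 10425 in replicate 1 and 841 in replicate 2. This was not particular to CstF64: pont had ranks 9516 and 783 and yem 537 and 5110, while dre4 had 2663 and 2844. All 11 had a pooled candidate within 500 bp, as did 12 of the 13 chaperone genes, 16 of the 20 exchange genes and 55.4% of protein-coding genes.

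**Figure D4:**
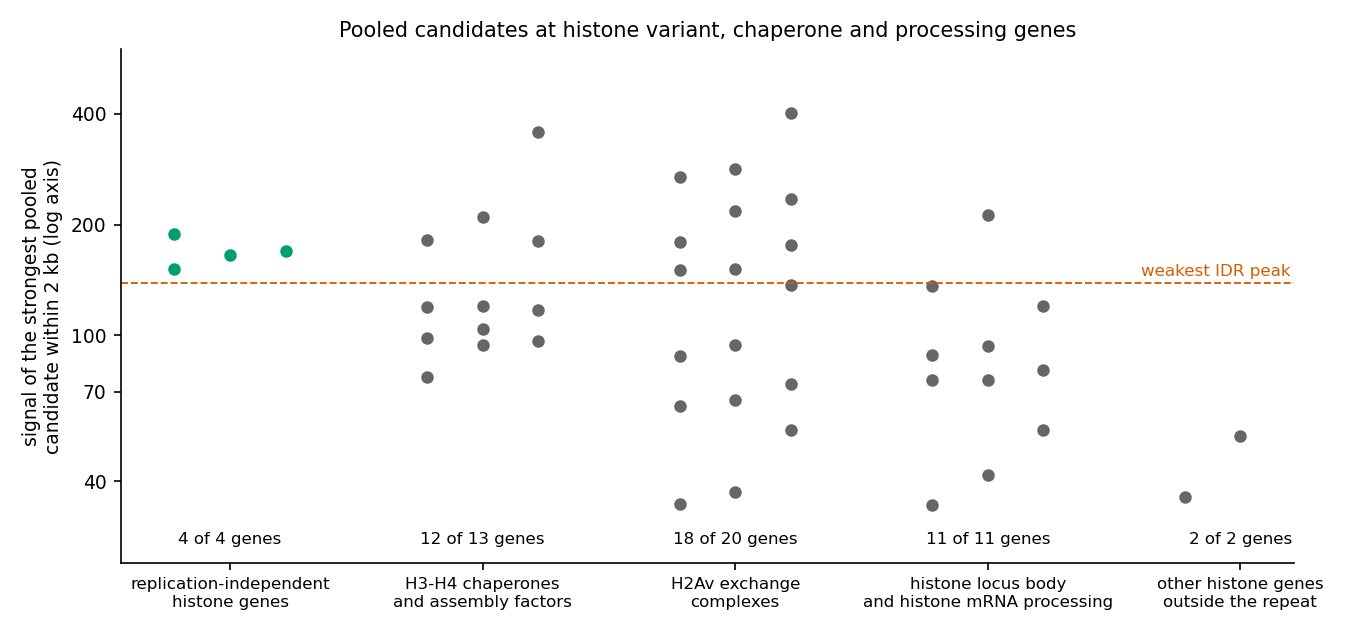
Signal of the strongest pooled candidate within 2 kb of a TSS (log y axis), 1 point per gene, for the 4 genes (green) and the 4 lists set beside them (grey), with a dashed line at 139, the weakest IDR peak. The counts along the bottom give the genes with a candidate, and the green points lie between 151 and 188.

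By the ranks in the pooled list and in both replicates, the genes most like each member were found among 2815 protein-coding genes with an IDR summit within 500 bp and a match in both replicates. The measure was the distance of log10 ranks over the 3 lists. For His2Av they were CG2930 and yin, which share a peak at ranks 2486, 6643 and 2001 in the pooled list, replicate 1 and replicate 2 (distance 0.0191). For His3.3A they were CG5577 (0.0130) and SMSr (0.0139), for His3.3B Dph2 (0.0265) and Rab3-GAP (0.0346), and for His4r ldbr (0.0403) and CG10466 (0.0526). Dph2, for example, had rank 3831 in the pooled list, 8202 in replicate 1 and 3646 in replicate 2. These genes were picked on the ranks, so their likeness in rank is no result.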

How the data were processed

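ChIP-seq peak lists of 2 biological replicates (1 group) were used. Per the deposited readme texts, candidates were called for each replicate and their pool against 1 control library, on dm6, and IDR peaks were derived from these lists. The sources used here name no aligner, caller or threshold. Each deposited peak has a signal and a −log10 q-value by the authors' caller. Signals serve to describe and rank peaks within a list, and no p-value was computed.

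Summits were set against Ensembl release 115 (BDGP 6.54) and the RefSeq genome sequence, with coordinates counted from 1. Of replicate 1, 29999 candidates lie on the 6 arms. Words of 32 bases were counted on both strands. Members and lists were chosen with earlier results of these data known. Genes named besides the members are those sharing a summit, up to 4 per list by signal, other histone genes, and the 2 nearest by rank. Hira and dom were named after their values were seen, and eIF3h, senju, Ost48, cbc, Rad17 and Lamp1 only place a summit. Alternatives covered windows, peak lists, each replicate alone, TSS sets, matching and word length. Python 3.11.15, numpy 2.4.6, pandas 2.3.3 and Biopython 1.88 were used, and the functions were tested on simulated data.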

Additional observations from a re-analysis of the deposited data

How the results depend on the processing

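Of 64 recomputed values, 40 stayed within a limit, 21 moved past it and 3 changed sign. The limit was 1 SD of the replicates for signals and distances, 1.5 times for counts, and the exact 95% binomial interval for shares of words. For signals this SD was taken over the strongest summit of each replicate at the gene, not over the matched peaks. All 4 genes kept an IDR summit with windows of 500 bp and 1 kb. In the part of the IDR list at or above its median signal of 201, 0 of the 4 genes had a summit, since all 4 signals are below it. Leaving out 1 replicate gave 2 to 4 genes with a summit among the 4410 strongest: 2 without replicate 2 (27.5% of protein-coding genes) and 4 without replicate 1 (28.7%). The highest signal over the list median then ranged from 1.69 to 3.51 at His2Av (3.18 pooled), 2.52 to 2.68 at His3.3A (2.79), 2.40 to 2.52 at His3.3B (2.55) and 1.89 to 2.57 at His4r (2.86). These are the strongest summits within 2 kb and not always the same site. At His3.3B, 2.40 is the middle start, 2.52 the upstream start and 2.55 the IDR summit. The matched peaks of that IDR summit stood at 1.42 and 2.51. At His2Av, 1.69 is the intron summit at 652 bp. With the 5′ end of the gene as its only TSS, the summit position changed sign to 64 bp inside His3.3A and 1451 bp inside His3.3B. Over all pooled candidates the nearest summit was at 27 bp inside His3.3B, a change of sign, and at -39 bp at His2Av. Over pooled candidates the lists had 12 (chaperones), 16 (H2Av exchange), 11 (histone locus body) and 2 (other histone genes) members with a summit within 500 bp. Leaving out 1 replicate gave 0 to 3 for the histone locus body, 6 to 8 for H2Av exchange and 4 for chaperones. No share of protein-coding genes at 500 bp is given here for the strongest peaks of a single replicate, so nothing is read from these counts. Words that occur once made up 0.767% of the repeat at 24 bases and 0.477% at 16, and at 16 bases 83.5% (His2Av), 84.6% (His3.3A), 78.1% (His3.3B) and 84.5% (His4r) of promoter words. Pairs of a gene and a word it held numbered 5 within 50 bp, 8 within 100 bp and 10 in promoters. The cause of these moves was not tested. No paired analysis was possible because there is 1 group.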

Other observations

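Only 5 distances between neighbouring pooled summits were longer than the one around the 2L histone repeat. The longest, 815 kb near the end of X, has 14.0% of 32-base words that occur once. The next 4, on 2L and X, measure 340, 339, 337 and 316 kb and have 94.7%, 86.4%, 95.7% and 95.6% of such words, against 38.0% for the 289 kb around the repeat. That stretch holds 119 protein-coding genes, of which 111 are the histone genes of the repeat and 6 and 2 lie in its left and right flanks. These 4 hold 7 to 21 each.

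His4r lies 49.9 kb from CG7987, the gene whose product carries the tag. Both are on 3R, and BigH1 lies on the same arm.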
